A study of Mus musculus with 12 samples.

Results

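Wild-type H3K9me3 was set side by side in epiblast stem cells (EpiSCs) and in mouse embryonic fibroblasts (MEFs) for the X-linked genes that carried a value in both libraries. That held for 711 of the 952 X-linked genes in the deposited table. A further 8 genes had a value in EpiSCs alone, 36 in MEFs alone and 197 in neither. The genes without a pair of values were shorter: the median gene length was 20144 bases among the 711, 2549.5 bases for EpiSCs alone, 4823 bases for MEFs alone and 1960 bases for neither. The series measured H3K9me3 and H3K27me3 by ChIP-seq in EpiSCs and MEFs that were wild type or mutant for Smchd1, with an input library for each kind of cell, 12 libraries in all.

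The EpiSC library was from female cells of stage E6.5 (embryonic day) and the MEF library from female cells of stage E13.5. Both were Smchd1 +/+ and both were heterozygous for Xist deltaA, an allele of Xist that all the cells of the series carried. The cells came from a cross of C57BL6/J with (JF1 x C57BL6/J F1), and the H3K9me3 antibody was the mouse monoclonal CMA318. The mutant cells, used below only as a further readout, were Smchd1 MD1/MD1 on the same Xist deltaA/+ background. Whether embryos were pooled, whether an EpiSC line was 1 clone, and which X chromosome the reads came from are not stated in the labels. Genes that define an epiblast stem cell or a fibroblast by their expression could not be read from histone marks on X-linked genes, so the cell type labels were not checked. With 1 library on each side, no difference below has a replicate check, and all values are descriptions of these libraries.

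H3K9me3 marks constitutive heterochromatin, where it is bound by HP1 proteins, and it is laid down by methyltransferases such as those of the Suv39h family. In female mammals the non-coding RNA Xist coats the X chromosome to be silenced, which then gains H3K27me3 from Polycomb complexes over most of its genes. H3K9me3 is found on the inactive X chromosome in domains largely apart from H3K27me3, and SmcHD1 is a structural maintenance of chromosomes protein needed for full silencing of that chromosome.

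Promoters of 5 genes are shown because these genes stand at the extremes described below. Fundc2 and Brcc3 ranked high in EpiSCs and low in MEFs, Maged1 ranked higher in MEFs, Wdr13 ranked high in both and Pbdc1 ranked low in both. Each sequence is the 250 bases before the RefSeq start of the gene on the gene's own strand, 5′ to 3′, with the dinucleotide CG in capitals, which reads the same on both strands. The windows lie in GRCm38.p6 at chrX:75382149-75382398 (plus strand), chrX:75416378-75416627 (plus strand), chrX:94542026-94542275 (minus strand), chrX:8132859-8133108 (minus strand) and chrX:105079506-105079755 (plus strand). They are credited to RefSeq, and no coordinate of that build was joined to the mm9 coordinates of the ChIP-seq table.
Fundc2: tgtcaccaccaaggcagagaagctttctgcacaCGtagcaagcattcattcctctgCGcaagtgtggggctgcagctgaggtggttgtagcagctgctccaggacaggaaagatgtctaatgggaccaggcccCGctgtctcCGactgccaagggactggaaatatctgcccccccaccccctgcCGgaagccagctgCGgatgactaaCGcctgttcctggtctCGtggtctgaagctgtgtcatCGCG
Brcc3: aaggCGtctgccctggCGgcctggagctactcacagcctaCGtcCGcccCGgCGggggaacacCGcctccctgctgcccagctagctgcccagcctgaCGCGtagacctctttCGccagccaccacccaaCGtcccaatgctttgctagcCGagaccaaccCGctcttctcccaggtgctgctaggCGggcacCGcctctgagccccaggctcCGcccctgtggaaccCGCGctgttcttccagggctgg
Maged1: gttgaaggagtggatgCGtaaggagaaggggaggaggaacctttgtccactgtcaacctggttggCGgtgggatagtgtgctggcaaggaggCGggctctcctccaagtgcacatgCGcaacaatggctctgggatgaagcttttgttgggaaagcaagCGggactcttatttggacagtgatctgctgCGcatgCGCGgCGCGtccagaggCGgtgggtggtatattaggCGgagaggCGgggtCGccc
Wdr13: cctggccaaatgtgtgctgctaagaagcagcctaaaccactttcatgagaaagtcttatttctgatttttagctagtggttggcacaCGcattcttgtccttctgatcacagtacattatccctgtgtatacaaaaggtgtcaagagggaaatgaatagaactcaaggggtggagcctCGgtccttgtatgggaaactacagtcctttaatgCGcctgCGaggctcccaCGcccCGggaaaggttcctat
Pbdc1: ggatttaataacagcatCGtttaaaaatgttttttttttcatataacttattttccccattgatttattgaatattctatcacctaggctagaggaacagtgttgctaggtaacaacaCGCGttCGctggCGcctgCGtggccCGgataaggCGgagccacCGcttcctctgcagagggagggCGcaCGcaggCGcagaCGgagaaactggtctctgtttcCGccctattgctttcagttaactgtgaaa
CG occurred 10 times in the window of Fundc2, 18 times in that of Brcc3, 14 times in that of Maged1, 6 times in that of Wdr13 and 14 times in that of Pbdc1. The observed over expected CpG ratio was 0.46, 0.65, 0.73, 0.43 and 1.02 in the same order. At least 1 CG was present in 92.1% of all RefSeq windows of this length and in 89.0% of those on the X chromosome. Over the 594 genes matched to a RefSeq promoter (83.5% of the 711, by symbol or synonym), this CpG ratio, taken over 300 bases from 250 before to 50 after the start, had a Spearman correlation across genes of −0.065 with the EpiSC percentile, −0.057 with the MEF percentile and 0.011 with the change between them.

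The deposited value of a gene is a log2 enrichment, read here as ChIP over input. How ChIP and input were scaled to each other is not given in the sources, so a value of 0 is the zero of the authors' scale and not a measured level without enrichment. Each value could be written as a ratio of whole numbers times 1 constant per library, and the smallest such numbers summed over genes to 188886 (ChIP) and 182193 (input) in EpiSCs and to 122980 and 237146 in MEFs. The median gene among the 711 had 72 ChIP and 80 input in EpiSCs and 58 ChIP and 110 input in MEFs, and its counting error on the log2 scale was 0.25 in EpiSCs and 0.24 in MEFs. The input number of a gene ran from 1 to 10634 in EpiSCs and from 1 to 14753 in MEFs, so short genes were measured far less precisely than long ones. The true counts may be multiples of these numbers. The constants recovered with them were 2.09 in EpiSCs and 0.96 in MEFs on the log2 scale. All intervals below come from them, have 95% confidence and cover counting error only. Genes that share reads with a near-identical copy, as in the Rhox, Ssx, Mage and Xlr families, are uncertain, and 96 of the 711 genes overlap another gene of the table and can share its reads.

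On the deposited scale, H3K9me3 was far higher and far more spread out over the X-linked genes of EpiSCs than over those of MEFs. The EpiSC values had a median of 2.06, with the middle of the distribution between 0.19 and 3.33 (quartiles) and the extremes at −3.34 and 4.92. The MEF values had a median of −0.088, quartiles of −0.60 and 0.68 and extremes of −3.92 and 3.28. The interquartile range was 3.14 in EpiSCs and 1.28 in MEFs. A value at least 2-fold over the deposited zero (1 or more on the log2 scale) was found at 456 genes (64.1%) in EpiSCs and at 139 genes (19.5%) in MEFs. The MEF genes were nearly all among the EpiSC genes: 131 of the 139 (94.2%) were at least 2-fold over it in EpiSCs as well, which is 28.7% of the 456. A further 170 of the 456 EpiSC genes (37.3%) lay below 0 in MEFs. With the recovered constants taken out, an alternative chosen after seeing the data, the medians were −0.029 in EpiSCs and −1.05 in MEFs. A value of 0 is then an equal ChIP and input number. It shifts with the depth of the libraries and is no measured level without enrichment either. The genes at least 2-fold over 0 then numbered 225 (31.6%) and 44 (6.19%), and 106 were at least 2-fold over it in EpiSCs and below it in MEFs.

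The difference MEF minus EpiSC had a median of −1.90 on the log2 scale, a 3.74-fold lower value in MEFs. It was below 0 at 625 genes (87.9%), at least 2-fold lower at 485 genes (68.2% of the 711) and at least 2-fold higher at 25 genes (3.52%). These counts rest on a scale that differs between the libraries. After each library was centred on its own median, 90 genes (12.7%) were at least 2-fold lower and 244 (34.3%) at least 2-fold higher in MEFs. The recovered constants differed by −1.13 (MEF minus EpiSC, log2), and with them taken out the median difference was −0.78. Fewer cells that carry the mark and less of the mark in each cell cannot be told apart in these bulk samples. Because the library scales differ, each gene was also given its percentile within its own library, which no constant of a library can change. The percentile runs from 0 for the lowest to 100 for the highest of the 711.

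**Figure D1:**
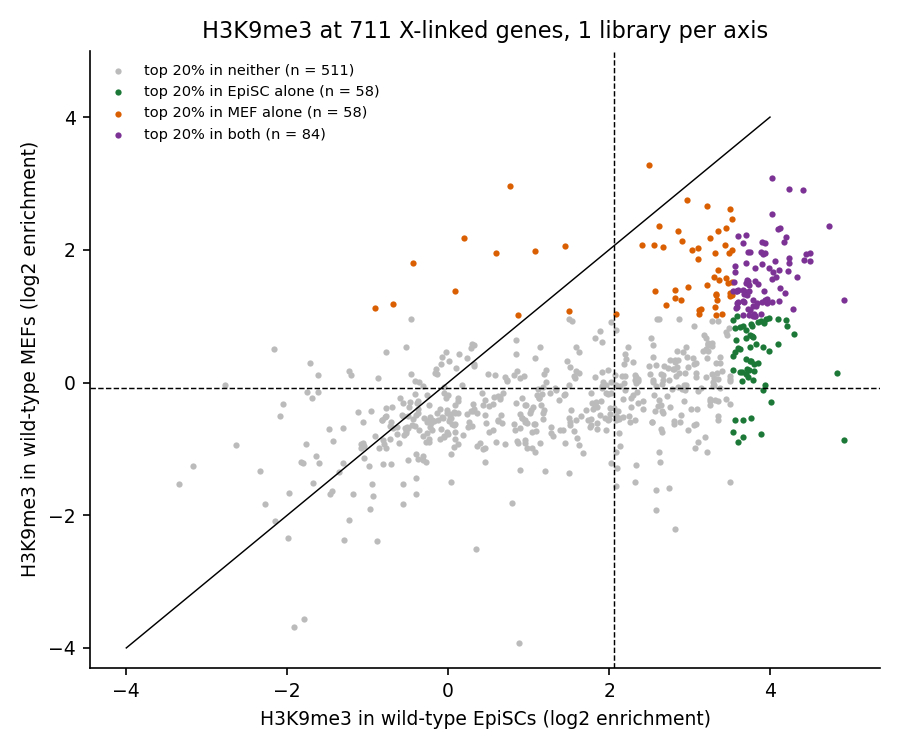
Each point is 1 of the 711 X-linked genes, with its deposited log2 H3K9me3 enrichment in wild-type EpiSCs on the x axis and in wild-type MEFs on the y axis, coloured by whether it is in the highest 20% of either library. The diagonal marks equal values and the dashed lines the medians of 2.06 and −0.088. Most points (625 of 711) lie below the diagonal, and the points of high MEF value sit mainly at high EpiSC values.

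By rank the libraries were alike over much of the chromosome. Across the 711 genes, Pearson's r was 0.62 and Spearman's rho 0.66, given as a description since genes are not replicates and neighbouring genes share chromatin. The percentile of 297 genes (41.8%) moved by at most 10 points. H3K27me3 of the same cells had a Spearman correlation between EpiSCs and MEFs of 0.70 over the same 711 genes. The highest 20% of each library held 142 genes, and 84 of them (59.2% of each set) were the same genes. At the edge of the EpiSC set Vgll1 (3.53) was inside and Zfp711 (3.53) outside, and at the edge of the MEF set Elk1 (0.999) was inside and Hdx (0.996) outside. The lowest 20% of each library shared 67 of 142 genes (47.2%).

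Of the 5 genes named as highest in both cell types, 4 lay near the proximal end of the chromosome. Wdr13, which encodes a WD repeat protein, stood at 4.20 in EpiSCs and 2.19 in MEFs, percentiles of 97.4 and 97.3. Porcn, the acyltransferase that modifies Wnt ligands for secretion, stood at 4.10 and 2.32, percentiles of 96.4 and 98.0. The predicted gene Gm6592 had 4.49 and 1.96, and Plp2, which encodes a membrane proteolipid and overlaps another gene of the table, had 4.03 and 2.54. These 4 genes lie between X 7245242 and 8426733 (mm9). The fifth, the predicted gene Gm732 at X 105141074 to 105143775, had 4.13 and 2.33. The percentiles of the 5 in MEFs were 94.2 to 98.8, while their differences MEF minus EpiSC on the deposited scale were between −2.54 and −1.49.

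A percentile lower by at least 25 points in MEFs than in EpiSCs was found at 82 genes (11.5% of the 711), and one higher by at least 25 points at 93 genes (13.1%). The counting intervals of the percentiles did not overlap for 48 of the 82 and 43 of the 93. The genes that ranked lower in MEFs had a median value of 2.88 in EpiSCs and −0.71 in MEFs. The genes that ranked higher in MEFs had medians of 0.14 and 0.37. On the deposited scale the medians of the second group were thus close together. It also held shorter genes, with a median length of 8090 bases against 14732 bases for the genes that ranked lower and 24174 bases for the other 536.

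The lowest ranks in MEFs relative to EpiSCs, among the 552 genes with whole numbers of at least 10 in each library, included 4 genes on the distal side of F8. Fundc2, which encodes a mitochondrial outer membrane protein, stood at 3.60 in EpiSCs and at −0.90 in MEFs. Its percentile was 83.1 (interval 70.5 to 95.6) in EpiSCs and 12.7 (3.94 to 42.2) in MEFs, and the difference of −4.51 log2 units had an interval of −5.25 to −3.76. The intervals were far apart although the MEF value rested on a ChIP number of 27. Mtcp1, a gene known from T-cell proliferation, stood at 3.54 and −0.75, percentiles of 80.5 and 17.2. Brcc3, a deubiquitinase specific for lysine-63-linked ubiquitin chains, stood at 3.76 and −0.54 and was the best counted of these genes, with 483 ChIP over 151 input in EpiSCs and 95 over 268 in MEFs. The unnamed transcript 4933407K13Rik stood at 2.75 and −1.59, percentiles of 62.1 and 3.16.

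The other 6 genes chosen for the largest falls in rank lay elsewhere on the chromosome. Xlr, of the X-linked lymphocyte-regulated family, stood at 3.67 in EpiSCs and −0.81 in MEFs. Cox7b, a subunit of cytochrome c oxidase, stood at 3.06 and −0.99, percentiles of 68.3 and 9.35. Rhox10, of the reproductive homeobox cluster, stood at 3.20 and −0.82, percentiles of 70.5 and 14.8. Gm6377 (3.67 and −0.57), C230004F18Rik (3.11 and −0.90) and C330007P06Rik (3.56 and −0.57) completed the set. For all 10 genes the percentile intervals did not overlap and the interval of the log2 difference lay below 0. The genes were picked for their falls in these same values, so this is no independent check. On the deposited scale, 87.9% of all genes had a log2 difference below 0.

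The largest gains in rank in MEFs came with smaller differences on the deposited scale, which is not the same for the 2 libraries. Maged1, a member of the melanoma antigen family, stood at 1.09 in EpiSCs and 1.99 in MEFs. Its percentile was 36.9 (23.6 to 50.2) in EpiSCs and 95.01 (85.8 to 99.2) in MEFs, the largest gain among these genes, but its log2 difference of 0.90 had an interval of −0.33 to 2.14. The transcript 4930578C19Rik stood at −1.21 and 0.11, percentiles of 4.99 and 58.5, with a log2 difference of 1.32 (0.66 to 1.98). Efhc2, which encodes an EF-hand protein, stood at −0.87 and 0.063, percentiles of 7.38 and 56.3, with a log2 difference of 0.94 (0.65 to 1.22). It was counted deeply, with 137 ChIP over 1064 input in EpiSCs and 691 over 1285 in MEFs. These were the 2 genes of the 10 whose interval of the log2 difference lay above 0 on the deposited scale. With each library centred on its own median, the differences ran from 1.72 to 3.47 for the 10 gains. For the 10 falls they then ran from −2.36 to −1.86.

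Zmym3, a zinc finger protein found in histone deacetylase complexes, stood at −0.074 in EpiSCs and 0.38 in MEFs, percentiles of 19.8 and 68.7. Msl3, a chromodomain protein of the MSL histone acetyltransferase complex, stood at 0.011 and 0.32, percentiles of 21.6 and 66.9. Ndp, which encodes the Frizzled ligand norrin, stood at −0.14 and 0.13, percentiles of 18.8 and 59.8. The Golgi membrane gene Yipf6 (25.8 to 71.4), the insulin receptor substrate gene Irs4 (18.5 to 63.4) and the ribosome biogenesis gene Las1l (24.7 to 69.6) moved likewise in percentile. Tmsb15a, a thymosin beta gene, went from 41.9 to 81.8, and it was the only 1 of the 10 whose percentile intervals overlapped.

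**Figure D2:**
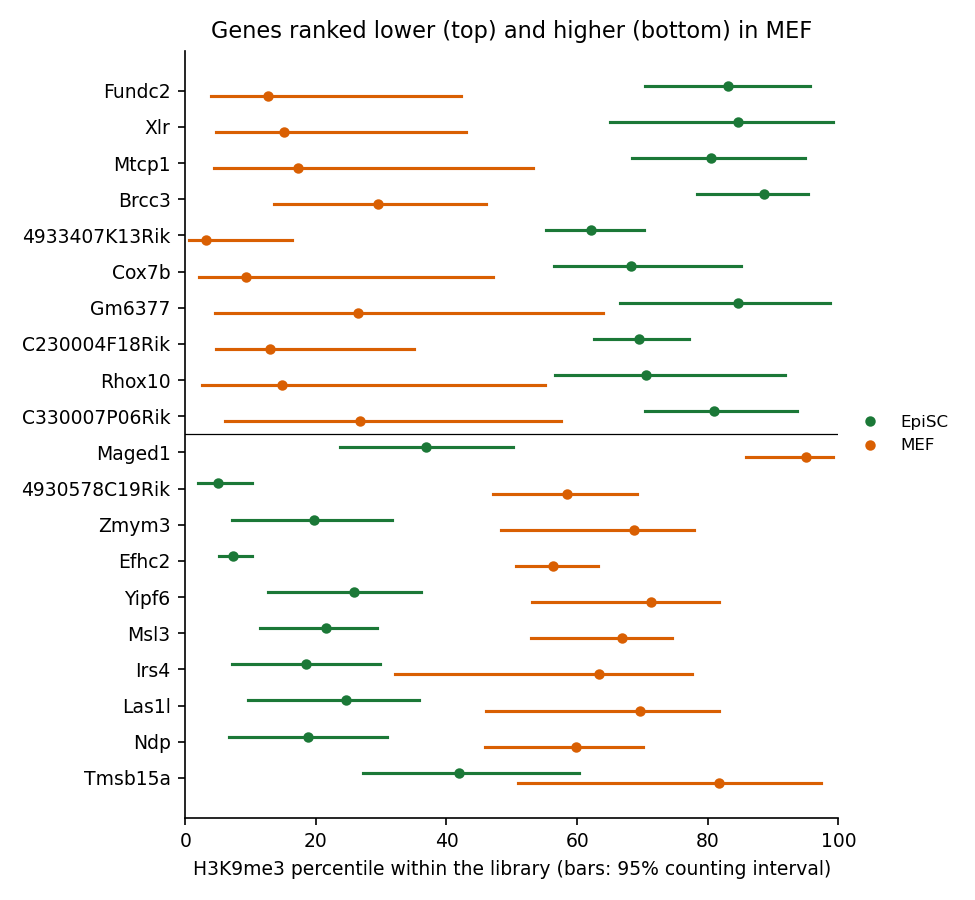
H3K9me3 percentile within the library (x axis, 0 to 100 over 711 genes) for the 10 genes with the largest fall and the 10 with the largest gain in rank, with EpiSCs in green, MEFs in orange and bars for the 95% counting interval. The points of 19 of the 20 genes have bars that do not overlap, and those of Tmsb15a overlap.

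Along the chromosome, high H3K9me3 lay in runs of neighbouring genes in both cell types, but the longest runs were in different places. In EpiSCs the 142 highest genes fell into 46 runs, with 80 genes (56.3%) in runs of 5 or more. In MEFs they fell into 57 runs, with 74 genes (52.1%) in runs of 5 or more. The longest EpiSC run held 17 genes from Itm2a to 2010106E10Rik (X 104592534 to 109671952), and 10 of the 17 were in the MEF set too. It included Tbx22, a T-box developmental regulator, Brwd3, a bromodomain protein, and Hmgn5, a nucleosome-binding protein. The same run contained Gm6377, at 3.67 in EpiSCs and −0.57 in MEFs, between genes that were high in both.

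The longest MEF run held 40 genes from Foxp3, the regulatory T-cell transcription factor, to Ssxb8 (X 7156802 to 8267970). Its values ran from 1.10 to 2.54 in MEFs (median 1.86) and from 2.90 to 4.44 in EpiSCs (median 3.73). Of the 40 genes, 27 were in the highest 20% in EpiSCs as well. It took in the erythroid transcription factor gene Gata1 (2.90 in EpiSCs and 2.13 in MEFs), the actin regulator Was (4.44 and 1.94), the deacetylase Hdac6 (3.85 and 1.48) and Suv39h1 (3.56 and 1.76), which encodes an H3K9 methyltransferase. Syp, a synaptic vesicle protein, stood at 3.73 and 1.10, Otud5, a deubiquitinase, at 3.58 and 1.19, and the kinase gene Pim2 at 3.11 and 2.02. The transcription factor gene Tfe3 stood at 3.91 and 2.12, Porcn is described above, and the Ssx members Ssxb10, Ssxb9, Ssxb2 and Ssxb8 lay at its end with 1.79 to 2.28 in MEFs. The value for Gata1 in MEFs rested on only 9 ChIP over 4 input. With the highest 10% of genes in place of 20%, the longest MEF run was 10 genes and the longest EpiSC run 7.

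Elsewhere the cell types parted. The EpiSC run of 9 genes from Lamp2 to Stag2 (X 35754534 to 39630363), which includes the cohesin gene Stag2 and the glutamate receptor gene Gria3, had a median of 3.80 in EpiSCs and 0.29 in MEFs, and 1 of the 9 was in the MEF set. The EpiSC run of 7 genes from Gab3 to Brcc3 had medians of 3.75 and 0.19, and 0 of the 7 were in the MEF set. By rank both runs were lower in MEFs but above the MEF median. Their median percentiles were 90.4 and 65.9 for the run from Lamp2, and 88.1 and 63.1 for the run from Gab3. By contrast, all 8 genes of the EpiSC run from Glod5 to Tbc1d25 were in the MEF set, and so were 6 of the 7 from Syn1 to Zfp182.

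**Figure D3:**
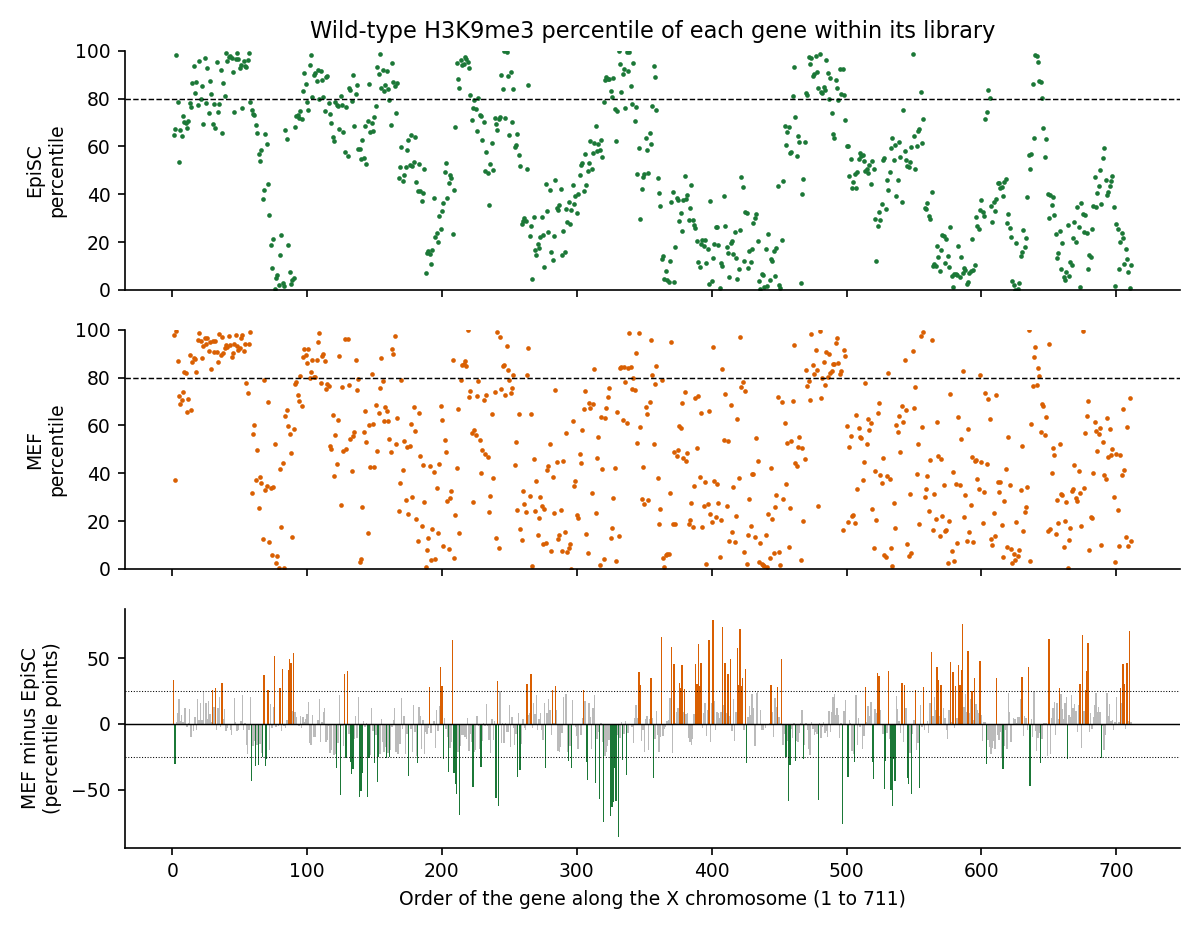
Percentile of each gene within the EpiSC library (top) and the MEF library (middle), and the difference MEF minus EpiSC in percentile points (bottom), with the 711 genes on the x axis in their order along the X chromosome. The dashed line marks the highest 20% and the dotted lines a difference of 25 points, with lower ranks in MEFs in green and higher ranks in orange. The EpiSC points form smoother waves than the MEF points, while many of the first genes are above the dashed line in both.

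By 10 Mb bins, 48 of the 66 genes of the first (72.7%) were in the highest 20% in MEFs, against 31 (47.0%) in EpiSCs. Its medians were 3.50 in EpiSCs and 1.55 in MEFs, and its median percentile change was 1.2 points. High shares were not particular to this bin. From 20 to 30 Mb, 16 of 23 genes were in the MEF set and 15 in the EpiSC set. From 120 to 130 Mb, 4 of 6 genes were in each set. The bin from 30 to 40 Mb held 16 of the 82 genes that ranked lower in MEFs among its 46 genes, and its median change was −21.0 points. The bin from 70 to 80 Mb also held 16, among 72 genes, and that from 50 to 60 Mb held 10 among 47. From 130 to 140 Mb, 14 genes ranked lower and 20 higher among 92. Over all 711 genes, 11.5% ranked lower and 13.1% higher by at least 25 points. The bin from 90 to 100 Mb held 24 genes that ranked higher and 1 that ranked lower among 72, with medians of −0.063 in EpiSCs and −0.44 in MEFs. All 6 genes from 110 to 120 Mb were in the highest 20% in MEFs. Neighbouring genes had similar values, with Pearson's r between neighbours of 0.87 in EpiSCs and 0.47 in MEFs. Over the 298 genes with an input number of at least 100 in both libraries it was 0.87 and 0.67.

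A sharp edge was seen at the end of F8, in a stretch that was picked out after its values were seen. The genes Gab3, Dkc1 (dyskerin), Smim9 and F8 (coagulation factor VIII) stood at 3.75, 3.77, 3.76 and 3.75 in EpiSCs and at 0.19, 0.32, 0.53 and 0.72 in MEFs. F8 ends at X 72625380 and Fundc2 starts at X 72627738. From there, Fundc2, Mtcp1, Brcc3, Vbp1 (a prefoldin subunit) and 4933407K13Rik stood at 3.60, 3.54, 3.76, 3.35 and 2.75 in EpiSCs and at −0.90, −0.75, −0.54, −0.28 and −1.59 in MEFs. In EpiSCs the genes on either side of the edge differed little, whereas in MEFs F8 was above 0 and Fundc2 below it. H3K27me3 over the same genes in MEFs was 2.23, 1.95, 1.63 and 1.38 before the edge and between 2.01 and 2.35 after it.

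A second stretch, picked in the same way, ran from Ndp to 4930578C19Rik (X 16462648 to 18038400). Ndp, Efhc2, Fundc1 and 4930578C19Rik stood at −0.14, −0.87, −1.76 and −1.21 in EpiSCs, and their percentiles of 18.8, 7.38, 2.46 and 4.99 became 59.8, 56.3, 48.5 and 58.5 in MEFs. Kdm6a, the H3K27 demethylase that escapes X inactivation, lies between the last of them and Fundc1. It stood at −1.43 in EpiSCs and −0.88 in MEFs, percentiles of 4.01 and 13.4. Its H3K27me3 was −1.97 and −1.76, against 3.87 to 4.41 in EpiSCs and 1.80 to 2.17 in MEFs at the other 4 genes. In another stretch, from Yipf6 to Pja1 (X 96133120 to 96666074), the percentiles of all 5 genes were higher in MEFs, 2 of them with intervals apart (Yipf6 and Efnb1). The ephrin ligand gene Efnb1 in its middle stood at −0.53 in EpiSCs and 0.54 in MEFs, percentiles of 11.7 and 72.2.

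Genes of the X-inactivation centre and genes known to escape inactivation had low H3K9me3 in both cell types. All 8 measured centre genes were below 0 in both libraries, against 132 of the 711 (18.6%), a count that was 344 with the constants taken out. Xist itself stood at −0.97 in EpiSCs and −1.90 in MEFs, and Tsix, its antisense partner, at −0.93 and −1.72, but they overlap and their reads cannot be told apart. The non-coding genes Ftx and Jpx stood at −1.99 and −2.15 in EpiSCs and at −2.35 and −2.09 in MEFs, and Chic1 at −1.44 and −1.64. The list's median percentile was 5.27 in EpiSCs and 2.53 in MEFs. Rlim, the ubiquitin ligase that activates Xist, moved most, from 12.7 to 42.1, with overlapping intervals.

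Of the 10 genes listed as escaping inactivation, 7 were below 0 in both libraries, and the median percentile was 6.05 in EpiSCs and 11.6 in MEFs. Ddx3x, a DEAD-box RNA helicase, stood at −1.80 and −3.57 on a ChIP number of 4 in each library, Eif2s3x, a translation initiation factor subunit, at −1.29 and −2.38, and Pbdc1 at −2.28 and −1.84. Kdm5c, an H3K4 demethylase, stood at −1.81 and −1.22. Exceptions were Shroom4 (2.97 and 0.39) and Utp14a (2.58 and −0.054), both of which overlap another gene of the table. Car5b, a mitochondrial carbonic anhydrase, moved from the percentile of 24.0 to 63.8 with intervals apart, and was the only 1 of the 10 to gain 25 points. Iqsec2, an exchange factor for Arf proteins at synapses that was on another list, was among the 5 genes low in both, at −1.47 and −1.68, with Ftx, Pbdc1, Chic1 and Eif2s3x.

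Of the gene lists, the Mage and Rhox families were farthest from the median change of 0.14 points over all 711 genes. Of 21 Mage genes in the table, 9 had a pair of values, with a median change of 34.5 points, and 5 of the 9 gained at least 25 points (13.1% over all genes) while 0 lost as much. Maged1 and Trap1a (percentiles of 41.1 and 95.7) moved most, and 3 of the 5 had intervals apart. Mageb16 and Mageb18, high in EpiSCs at 3.98 and 3.77, ranked lower in MEFs by 14.9 and 11.4 points. Of 30 Rhox genes, 10 had a pair of values, with a median change of −24.8 points. Here 5 of the 10 lost at least 25 points (11.5% over all genes) and 0 gained as much, but only 1 of the 5, Rhox10, had intervals apart. The largest change, −55.8 points at Rhox2g, rested on 3 ChIP over 18 input in MEFs, and Rhox13 and Rhox2f moved the other way by 11.96 and 20.5 points. The 6 measured Ssx genes stayed high, with median percentiles of 93.5 and 93.2, from Ssxb5 (−22.8 points) and Ssx9 (−15.8) to Ssxb9 (2.46) and Ssxb2 (21.6).

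**Figure D4:**
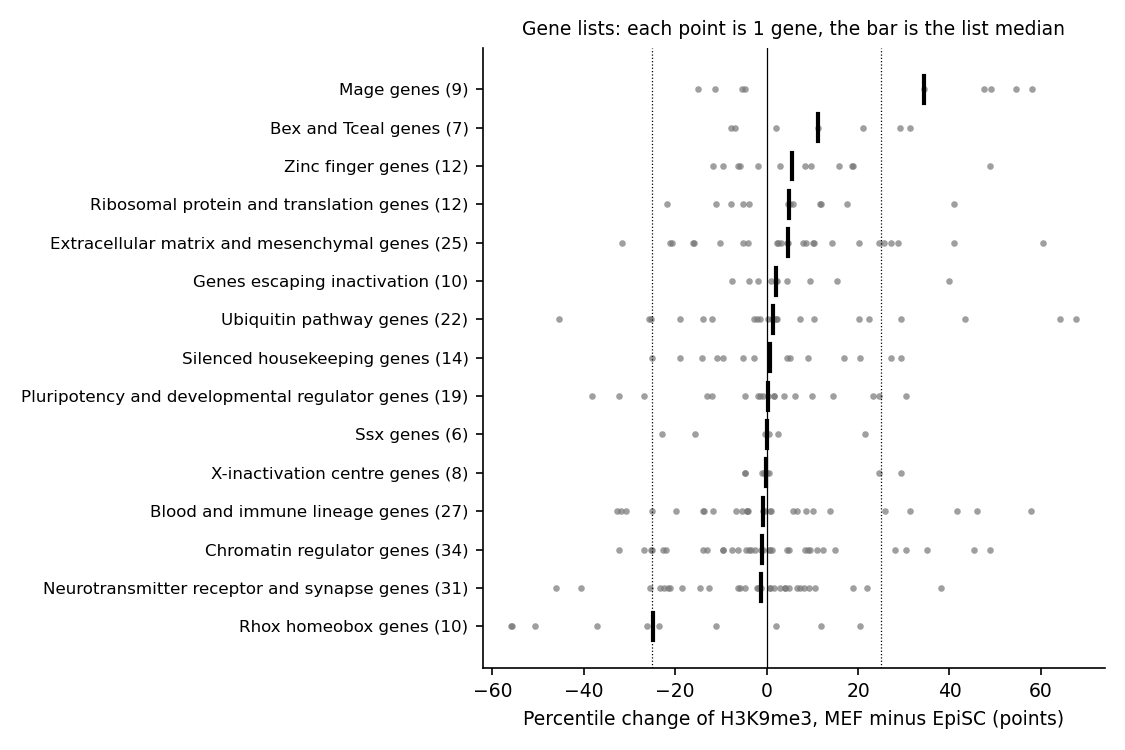
Percentile change MEF minus EpiSC (x axis, in points) of the measured members of 15 gene lists, with the number of members in brackets, 1 point per gene and a bar at the list's median. Mage genes have the highest median (34.5) and Rhox genes the lowest (−24.8), and the other medians lie between −1.13 and 11.3.

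Beside the 11.5% of all genes that ranked at least 25 points lower in MEFs and the 13.1% that ranked as much higher, chromatin regulators had like shares. Of 34 measured genes, 4 (11.8%) ranked lower and 5 (14.7%) higher, with 3 of each having intervals apart, and the median change was −0.91. Bcor, a Polycomb-associated corepressor, stood at 2.89 in EpiSCs and −0.48 in MEFs, percentiles of 65.2 and 33.0, and Phf6, a PHD finger protein, at 1.04 and −0.99. Zmym3 and Msl3 were the largest gains. Atrx, a chromatin remodeller that binds H3K9me3 heterochromatin and is also on the list of silenced housekeeping genes, stood at 2.66 and −0.43, percentiles of 60.7 and 35.5. Of the 14 silenced housekeeping genes, Atrx was the only 1 to lose 25 points (7.14%), Huwe1, a ubiquitin ligase, lost 18.99, and Pdha1, of pyruvate dehydrogenase, and Rlim gained over 25 with intervals that overlapped.

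Among lineage genes, the shares are again to be read beside 11.5% and 13.1% over all genes. Of 31 neurotransmitter receptor and synapse genes, 3 (9.68%) lost and 1 (3.23%) gained 25 points, all with intervals apart. The glycine receptor gene Glra4, which overlaps another gene of the table, stood at 2.10 in EpiSCs and −1.29 in MEFs. The protocadherin gene Pcdh19 stood at 2.65 and −0.70, percentiles of 60.3 and 19.6. The neuroligin gene Nlgn3 went the other way, from the percentile of 15.4 to 53.5, and Gabre, a GABA receptor subunit gene, by 22.01 points. Of 25 extracellular matrix and mesenchymal genes, 1 (4%) lost and 5 (20%) gained 25 points, against 11.5% and 13.1%. Srpx, a sushi-repeat protein gene, stood at 2.53 and −0.59, and Fhl1, of the LIM domain family, at 3.50 and 0.10. Efnb1 and Ndp were the largest gains, and Col4a6, a basement membrane collagen gene counted with 891 input in EpiSCs and 2051 in MEFs, went from the percentile of 6.54 to 35.4.

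Of 27 blood and immune lineage genes, 4 (14.8%) lost and 5 (18.5%) gained 25 points, against 11.5% and 13.1% over all genes, and only 2 of these 9, both losses, had intervals apart. Cd40lg, the CD40 ligand gene, lost 32.6 points, and Cybb, a subunit of the phagocyte NADPH oxidase, stood at 3.10 and −0.40, a loss of 31.8 points. The chemokine receptor gene Cxcr3 and the interleukin receptor gene Il2rg gained 57.7 and 46.1 points on ChIP numbers in EpiSCs of 1 and 5. Of 19 pluripotency and developmental regulators, 3 (15.8%) lost and 1 (5.26%) gained. Nkap, a transcriptional regulator, stood at 3.50 and −0.32, and Hmgb3, the only gain, rested on 2 ChIP over 2 input in EpiSCs. Nr0b1 (2.58 and 0.27), a nuclear receptor gene of pluripotent cells, moved by 6.26 points and Cdx4 by 24.7.

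The remaining lists were small. Of 22 ubiquitin pathway genes, 3 (13.6%) lost and 4 (18.2%) gained 25 points, against 11.5% and 13.1% over all genes. The loss at Xiap, an inhibitor of apoptosis (3.85 and 0.29), was the only 1 of these with intervals apart, and Ubl4 lost 45.4 points on small numbers. The gains at Rnf138rt1 (67.8 points) and Klhl34 (64.2 points) rested on an input number of 1 in MEFs. Of 12 zinc finger genes only Zmym3 (8.33%) passed 25 points, with Zfp300 at 18.8 and Zfp449 and Zfx at −11.7 and −9.56. The list of ribosomal protein and translation genes was drawn more widely than its name, and Nxt2 and Rps6ka6 are among its wider members. Of its 12 measured genes only Nxt2 passed 25 points (40.9 points), and the next were Rpl10 (17.6), Dkc1 (−21.8) and Rps6ka6 (−11.1). Of 7 Bex and Tceal genes, Ngfrap1 (31.4) and Tceal3 (29.3) passed 25 points (28.6% of the list, with 13.1% over all genes) with overlapping intervals, while Tceal6 and Wbp5 lost 7.88 and 6.82. Of 7 olfactory, taste and vomeronasal receptor genes in the table, 0 had a pair of values.

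The other mark of the same cells differed between these genes. H3K27me3 was low where H3K9me3 was high: its Spearman correlation with H3K9me3 across the 711 genes was −0.78 in EpiSCs and −0.52 in MEFs. Both marks were divided by input libraries of the same cells, so errors of the input enter both and move both values in the same direction. For the 84 genes in the highest 20% of H3K9me3 in both cell types, the median H3K27me3 percentile was 11.1 in EpiSCs and 12.9 in MEFs. For the 58 genes high in EpiSCs alone it was 15.1 in EpiSCs and 23.7 in MEFs, and for the 58 high in MEFs alone it was 22.8 and 24.6. For the other 511 it was 63.1 and 61.3. The groups rest on the 20% cut, and most genes high in 1 cell type alone were above the median of the other library. Genes high in EpiSCs alone had a median H3K9me3 percentile of 70.5 in MEFs, with 10 of the 58 below the MEF median. Genes high in MEFs alone had a median H3K9me3 percentile of 69.6 in EpiSCs, with 11 of the 58 below the EpiSC median. H3K27me3 in EpiSCs was below 0 at 38 of the 84 genes (45.2%), 14 of 58 (24.1%), 11 of 58 (18.97%) and 9 of 511 (1.76%), in the same order. The percentile changes of the marks from EpiSCs to MEFs had a Spearman correlation of −0.22.

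**Figure D5:**
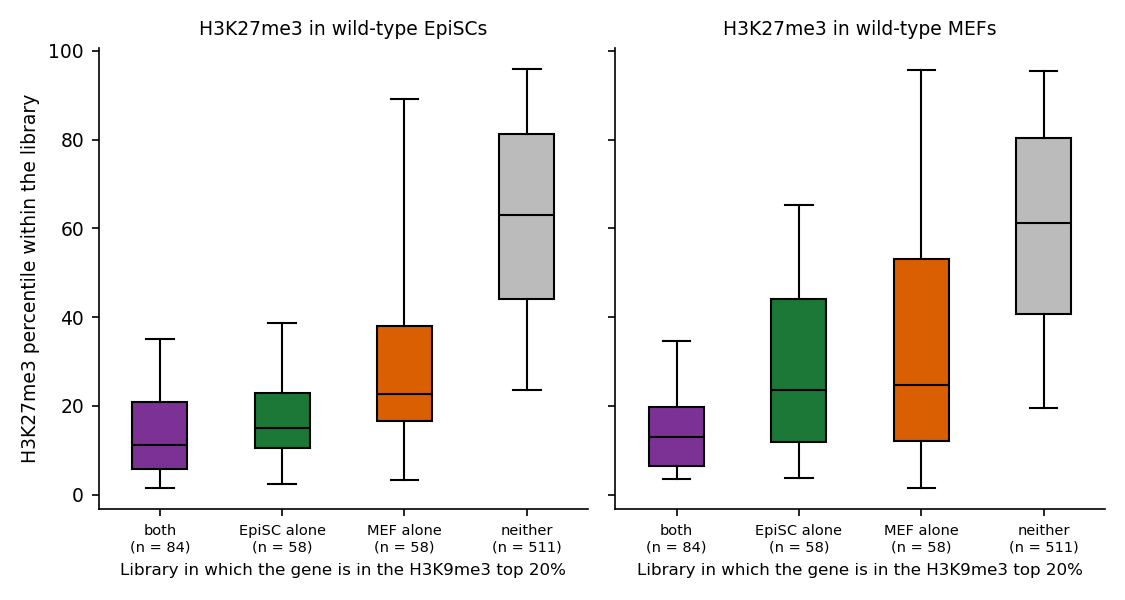
H3K27me3 percentile within the library (y axis) in wild-type EpiSCs (left) and MEFs (right) for genes grouped by the cell type in which they are in the highest 20% of H3K9me3. Boxes show the quartiles with the median line, and whiskers run from the percentile of 5 to that of 95. Genes high in H3K9me3 in both cell types have the lowest medians (11.1 and 12.9) and genes high in neither the highest (63.1 and 61.3).

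These groups also differed in length and counting depth. Genes high in MEFs alone were short, with a median of 4946.5 bases and an input number of 22 in MEFs, against 19539 bases and 138.5 for genes high in EpiSCs alone and 11498.5 bases and 51.5 for genes high in both. Of the 58 genes high in MEFs alone, 29 had an input number of at least 20 in both libraries, against 53 of the 84 high in both. The part of length and depth in these groups was not tested. Across all 711 genes, length had a Spearman correlation of −0.19 with the EpiSC percentile, −0.29 with the MEF percentile and −0.13 with the change.

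In the Smchd1 MD1/MD1 cells, H3K9me3 over the same groups was lower in level, and so was that over the genes high in neither. For the genes high in both wild-type libraries, the median was 3.84 in wild-type EpiSCs and −0.62 in MD1 EpiSCs, and 1.51 in wild-type MEFs and −0.71 in MD1 MEFs. For those high in EpiSCs alone, the medians in MD1 cells were −1.05 in EpiSCs and −0.92 in MEFs, and for those high in MEFs alone −0.89 and −1.38. Genes high in neither had medians of 1.09 in wild-type and −1.34 in MD1 EpiSCs, and of −0.40 in wild-type and −1.35 in MD1 MEFs. The high groups were picked for high wild-type values. By rank within the MD1 libraries, the genes high in both still had median percentiles of 80.2 in EpiSCs and 75.1 in MEFs. Genes high in EpiSCs alone had 62.0 in MD1 EpiSCs and 65.7 in MD1 MEFs. Genes high in MEFs alone had 70.9 and 45.3, so in MD1 MEFs their median was below that of the genes high in EpiSCs alone. They were widely spread there, with quartiles of 13.8 and 93.4, against 39.2 and 84.7 for genes high in EpiSCs alone. In MD1 MEFs, 8 of the 83 measured genes high in both were at least 2-fold over 0. So were 2 of the 58 high in EpiSCs alone, 8 of the 58 high in MEFs alone and 0 of the 510 high in neither. In MD1 EpiSCs the counts were 13 of 81, 9 of 56, 7 of 57 and 3 of 506, in the same order. Genes high in neither had median percentiles of 45.8 in MD1 EpiSCs and 46.7 in MD1 MEFs. The scales of these libraries differ as well, and each was 1 library.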

How the data were processed

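H3K9me3 was measured by ChIP-seq in 1 wild-type EpiSC and 1 wild-type MEF library, out of 8 ChIP libraries and 12 in all. For each X-linked gene the authors deposited a log2 enrichment, read here as ChIP over input. The genome build was mm9, and the tools were cutadapt, BWA and SAMtools, per the submitters' processing notes. For the versions, the counting rule, any coverage minimum and the treatment of the alleles, nothing is given in the sources used here, although the series is described as allele-specific. Starts in the table count from 0: of 944 gene names matched to RefSeq, 415 had the same length when read that way and 38 when read as counting from 1. Positions are printed counted from 1.

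Values were used as deposited. Percentiles are mid-ranks over the 711 genes within a library. Each value was written as the smallest ratio of whole numbers times 1 constant per library (relative tolerance 1e-12), which succeeded for 100% of values. After random shifts with an SD of 1e-06, 0.417% of EpiSC and 0.803% of MEF values still matched. The smallest input numbers of a gene were the same for both marks in 51.6% (EpiSCs) and 47.9% (MEFs) of genes, so many are fractions of the true counts and the intervals are then too wide. Intervals use the normal approximation on the log scale at 95%, and read totals per library were not used. The procedures were tested on simulated data. Python 3.11.15, numpy 2.4.6, pandas 2.3.3, scipy 1.17.1 and matplotlib 3.10.9 were used.

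The genes, lists and thresholds were chosen with earlier results of these data known. Genes were named by rule: the 10 largest falls and 10 largest gains in percentile and the 5 highest and 5 lowest in both libraries, among genes with whole numbers of at least 10, plus up to 2 largest falls and 2 largest gains per list, and the listed genes and ends of the longest run. Further genes named in the lists and the stretches were chosen after their values were seen. Alternatives changed the scaling, the pseudocount, filters on low values, input and length, and the thresholds.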

Additional observations from a re-analysis of the deposited data

How the results depend on the processing

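Results on the deposited scale depend on how the libraries are scaled. The median difference of −1.90 became 0.24 after centring and −2.10 without the lowest 10% of genes. In alternatives chosen after seeing the data, it was −0.78 with the library constants taken out and 0.00014 with the MEF values mapped to the EpiSC distribution, which sets it near 0 by construction. The 485 genes at least 2-fold lower became 90, 314 and 139 under centring, constants out and mapping, and the 25 higher became 244, 102 and 136. The 25 became 12 without the lowest 10% and 11 with an input number of at least 20. Gains of 25 percentile points numbered 58 in place of 93 at that input minimum (550 genes left) and 43 with counting intervals apart, and losses 48 in place of 82 with intervals apart, a setting added later. The shared part of the highest genes was 43.7% for the top 10%, 73.2% for the top 30% and 68.2% at the input minimum, in place of 59.2%. The longest EpiSC run became 7 genes (top 10%) or 26 (top 30%) in place of 17, and the longest MEF run 10 (top 10%) in place of 40. The named genes kept their direction and at least 25 points in 56 of 56 recomputed values (44.2 to 75.1 points). That outcome was nearly fixed in advance and is no independent check. The genes had been picked for the largest changes, and these settings only ranked the same values among fewer genes. With an input number of at least 20, 1 Rhox loss and 2 Mage gains were left. No paired analysis was possible because each side has 1 library. Depth limits short genes most.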

Other observations

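A few genes crossed from one end of the ranking to the other. From the highest 20% in EpiSCs to the lowest 20% in MEFs went 5 genes: Xlr, Fundc2, Mtcp1, Gm4937 and 4921511C20Rik. The predicted gene Gm4937 (X 73509645 to 73513012) had the highest EpiSC value of all 711 genes, 4.92, and stood at −0.87 in MEFs, with 57 ChIP over 8 input and 11 over 39. The transcript 4921511C20Rik stood at 3.89 and −0.78 on 14 over 4 and 3 over 10, and its percentile intervals overlapped. In the other direction went 3 genes, all with percentile intervals apart but small numbers in EpiSCs. Pdzd11, which encodes a PDZ domain protein (X 97818245 to 97821246), stood at −0.44 in EpiSCs on 4 over 23 and at 1.81 in MEFs on 27 over 15. Foxo4, a forkhead transcription factor gene, stood at −0.68 and 1.18, and Kcne1l, a potassium channel subunit gene, at −0.91 and 1.13 with 1 ChIP over 8 input in EpiSCs. These genes were chosen after their values were seen.

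Some losses and gains of rank were next to a gene that moved the same way: 34 of the 82 losses (41.5%) and 33 of the 93 gains (35.5%) had such a neighbour. Over all genes, 11.5% were losses and 13.1% gains, and a gene can have a neighbour on either side. Whether the counts exceed what these shares give was not tested. Of the losses 14, and of the gains 14, overlapped another gene of the table and can share its reads. Besides the stretches described above, 4 genes from Arxes2 to 5730412P04Rik (X 132528359 to 132649959) had medians of 2.64 in EpiSCs and −0.90 in MEFs. The 3 genes from Upf3b, of nonsense-mediated decay, to Akap14 had medians of 3.65 and 0.020. Gains ran together over 5 genes from Cxcr3 to Ercc6l (X 98926875 to 99352430; median percentiles of 25.1 and 76.0) and over 4 genes from Irs4 to Kcne1l (10.3 and 58.9).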
